A study of Mus musculus with 2 samples.

Results

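The collagen genes are the mouse genes that encode the chains of the collagens, and were taken here as every transcript of the count table whose RefSeq identifier maps to a symbol of the form Col, number, a, number. With the transcript of most reads standing for each symbol, 43 of the 23571 genes of the table were collagen genes. They comprised 11 fibrillar collagens, the 6 chains of basement membrane (type IV) collagen, the 2 epithelial adhesion collagens Col7a1 and Col17a1, 6 type VI (beaded filament) chains, 8 fibril-associated collagens, 3 short-chain collagens, 2 multiplexins, 3 transmembrane collagens, and Col26a1 and Col28a1. Both libraries came from sorted mTEChi, medullary thymic epithelial cells rich in MHC class II, of 1 lentigenic mouse made from a B6 oocyte. The mouse carried small hairpin RNAs against Clp1 and a ZsGreen (GFP) reporter under the doxycycline-inducible TRE3G promoter, with the TetOn3G transactivator under the EF1 promoter, and ate doxycycline pellets (2 g/kg) during 2 weeks, starting at an age of 3 weeks. The Clp1 knockdown library was made from GFP-positive cells, and GFP-negative cells of the same thymus, exposed to the same doxycycline, gave the control (Ctr) library. There was 1 library per group, so no difference below has a replicate check, no test across samples was possible, and every statement is about these libraries.

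Collagens are trimers whose chains wind around each other in a triple helix, which needs glycine at the first place of each Gly-X-Y unit. Fibrillar collagens (types I, II, III, V, XI, XXIV and XXVII) carry a long, almost unbroken helix and pack into the fibrils of connective tissue, made mostly by fibroblasts, bone cells and cartilage cells. Type IV collagen has a helix with many breaks and forms the flexible network of basement membranes under epithelia and around vessels. The epithelial adhesion collagens hold an epithelium to its matrix: type XVII is a transmembrane protein of hemidesmosomes, and type VII builds the anchoring fibrils below them.

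The coding sequences of the mm9 (NCBIM37) genome show this difference between the classes. In the following coding exons, read 5′ to 3′ on the coding strand, the capitals mark the glycine codons of the repeat (all of the form GGN). They were chosen because each shows the repeat of its class, so they are examples and no evidence for the difference. The fibrillar exons had to be 54 bp long and lie in the longest unbroken run, and the others had to hold a break. Those of the fibrillar Col1a1 (chr11:94801218-94801271, plus strand, coding exon 8), Col3a1 (chr1:45382205-45382258, plus strand, coding exon 6) and Col5a1 (chr2:27820771-27820824, plus strand, coding exon 15) are 54 bp long and hold 6 units each with no break. Those of Col4a1 (chr8:11242173-11242214, minus strand, coding exon 12) and Col4a2 (chr8:11406813-11406854, plus strand, coding exon 11) are 42 bp long and hold a break of 6 bases in the repeat. The exon of Col17a1 (chr19:47740347-47740451, minus strand, coding exon 22) is 105 bp long and begins and ends inside a glycine codon, and that of Col7a1 (chr9:108877871-108877912, plus strand, coding exon 89) has a break of 15 bases.
Col1a1: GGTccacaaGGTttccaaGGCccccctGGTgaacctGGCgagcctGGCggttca
Col3a1: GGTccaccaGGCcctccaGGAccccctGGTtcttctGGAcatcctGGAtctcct
Col5a1: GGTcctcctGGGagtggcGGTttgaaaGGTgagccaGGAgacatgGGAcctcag
Col4a1: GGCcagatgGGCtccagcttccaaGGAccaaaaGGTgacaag
Col4a2: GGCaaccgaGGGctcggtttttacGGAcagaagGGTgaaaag
Col17a1: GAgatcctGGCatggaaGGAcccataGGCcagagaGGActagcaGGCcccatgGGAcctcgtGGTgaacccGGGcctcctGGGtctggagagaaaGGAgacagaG
Col7a1: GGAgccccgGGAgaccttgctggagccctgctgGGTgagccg
Over the whole coding sequence, the longest unbroken run of Gly-X-Y units was 216 to 344 units in the 11 fibrillar genes, against 39 to 66 in the 6 type IV genes and 55 and 75 in Col17a1 and Col7a1. The fibrillar genes held 21 to 33 coding exons of 54 bp and the type IV genes 1 to 3.

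The counts of all RefSeq transcripts summed to 28464803 in the Ctr library and 37524730 in the knockdown library, where a read shared by isoforms counts again. Each log2 ratio sets the knockdown library over Ctr, with counts divided by size factors (0.877 for Ctr, 1.14 for knockdown) and with 95% intervals (exact, Clopper-Pearson) that cover counting error of reads only. Clp1, the targeted gene, had 1573 reads in Ctr and 812 after knockdown (log2 ratio -1.33, interval -1.46 to -1.21). All 8 thymic epithelial markers were read in both libraries, Aire with 7462 and 8264 reads. Of these, 3 were higher after knockdown, Epcam (log2 ratio 1.34), Krt5 (1.12) and Krt14 (1.10), and 0 were lower. Their summed scaled reads, most of them of H2-Aa, were 258654 in Ctr and 280763 after knockdown. The cells had been sorted as CD45-negative and Ly51 low or intermediate. Markers of other cells were read as well and none was at 0, so that being read does not by itself bear out the mTEChi label. The endothelial Plvap had 15587 reads in Ctr and 328 after knockdown, and Epcam 7928 and 26108. The markers of other cells differed between the libraries. By the 2-fold rule given below, 19.7% of all genes were lower and 22% higher. Of 9 endothelial markers 9 were lower in the knockdown library, with summed scaled reads of 35878 in Ctr and 1787. Of 12 fibroblast and mural markers 7 were lower, 0 higher and 5 neither, with 18380 and 12036. Of these 12, 10 lay below 0 and 2 above it, Rgs5 (0.82, interval 0.74 to 0.90) and Acta2 (0.061, interval -0.020 to 0.14). Of 6 cortical epithelial markers 5 were lower and 0 higher, Psmb11 at -2.78 among them, with 27252 and 14597. Of 7 corneocyte-like markers, genes of the cornified epithelial end stage, 6 were higher, with 3711 and 10801. In bulk RNA, fewer cells of a type and less RNA per cell cannot be told apart, and the part of these cells in the collagen results below was not tested.

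Collagen transcripts were a smaller share of the knockdown library. They took 32986 reads in Ctr, 0.116% of the summed transcript counts (interval 0.115% to 0.117%). In the knockdown library they took 23188 reads, 0.0618% (0.0610% to 0.0626%). These sums count reads shared by isoforms more than 1 time. With 1 transcript per gene they were 21025240 in Ctr and 27371060 after knockdown, so both shares are larger on that base. Of the 43 genes, 40 had at least 10 reads over both libraries, and Col24a1, Col4a6 and Col8a2 had fewer. A gene was called lower or higher when its ratio was at least 2-fold and its interval excluded 0. By this rule 19 of the 40 collagen genes were lower in the knockdown library, 8 were higher and 13 were neither, whereas 19.7% of all 18993 genes with at least 10 reads were lower and 22% higher. The median log2 ratio (with 0.5 added to scaled reads) was -0.80 over the collagen genes and 0.026 over all genes, and 28 collagen genes lay below 0.

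**Figure D1:**
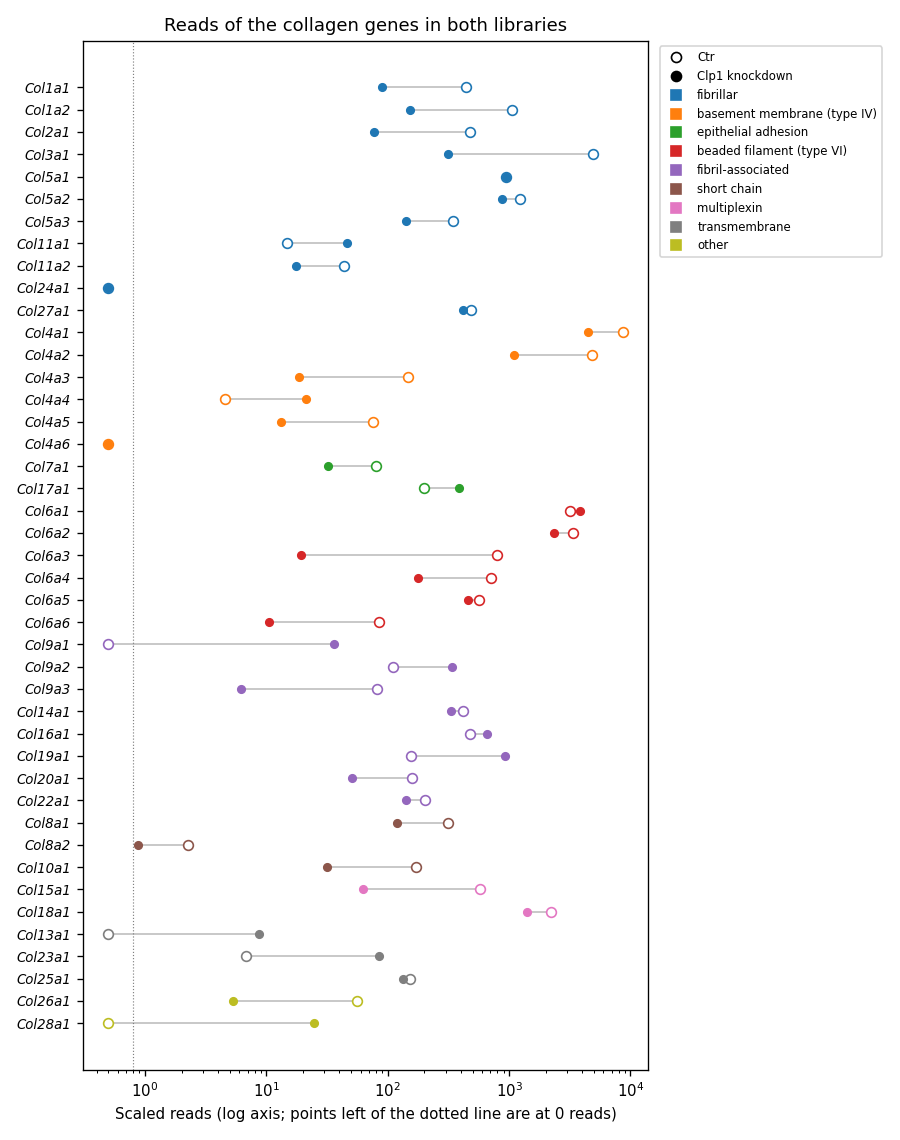
Scaled reads (counts divided by the size factor, log axis) of the 43 collagen genes in the Ctr library (open circles) and the Clp1 knockdown library (filled circles), coloured by class, with a grey line joining the values of each gene and 0 reads drawn left of the dotted line. Col3a1 runs from 4878 to 316 scaled reads, whereas Col5a1 has 940 and 944; there is 1 library per group and no error bar.

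How often a gene passed 2-fold depended on its depth, so the collagen genes are also given by read number. Of 12 collagen genes with 1000 reads or more, 3 were lower and 1 was higher, where 9.67% and 11.3% of all genes of that depth were. Of 18 with 100 to under 1000 reads, 11 were lower and 2 higher, against 26.7% and 24.7% of all genes. Of 10 with 10 to under 100 reads, 5 were lower and 5 higher, against 30.4% and 42.5%. The share of lower calls was above that of all genes in each depth class, and that of higher calls was above it in the shallowest class only.

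Among the fibrillar collagens, types I, II and III were lower in the knockdown library, while Col5a1 and Col5a2, the main chains of type V, stayed within 2-fold. Of 10 fibrillar genes with at least 10 reads, 6 were lower, 1 was higher and 3 were neither, with a median log2 ratio of -1.29. These are 60% lower and 10% higher, where 19.7% and 22% of all genes were. The 4 genes of types I to III were all lower (median -2.70). Of the 6 genes of types V, XI and XXVII 2 were lower and 1 was higher (33.3% and 16.7%, median -0.36), nearer the shares of all genes. This split of the fibrillar class was not among the planned contrasts.

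Col3a1, the single chain of type III collagen of elastic tissues and of the reticular fibres of lymphoid organs, had 4278 reads in Ctr and 360 after knockdown. It was 15.4-fold lower (log2 ratio -3.95, interval -4.11 to -3.79). Type I collagen, the main collagen of skin and bone, is built from the products of Col1a1 and Col1a2. Col1a1 had 390 reads in Ctr and 103 after knockdown (log2 ratio -2.30, interval -2.63 to -1.98). Col1a2 had 933 and 175 (log2 ratio -2.79, interval -3.03 to -2.56). Both chains were thus lower, and Col1a2 by more than Col1a1, with a difference of 0.49 on the log2 scale (interval 0.087 to 0.90). Col2a1, the chain of cartilage collagen and an antigen of arthritis models, had 417 reads and 88 (log2 ratio -2.62, interval -2.97 to -2.29). These 4 genes summed to 6862 scaled reads in Ctr and 637 after knockdown.

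Type V collagen is a minor component that sits inside type I fibrils and sets their width. Col5a1 had 824 reads in Ctr and 1076 after knockdown (log2 ratio 0.0065, interval -0.13 to 0.14), a difference that was not detectable at this depth. This value depended on the setting. Col5a1 was at 0.35 in the last exon (interval 0.069 to 0.63) and -0.12 outside it (interval -0.27 to 0.038). With the trend over GC content given below subtracted, it was at 0.38 (interval 0.25 to 0.51). Col5a2 had 1078 and 1003 (log2 ratio -0.48, interval -0.61 to -0.36), short of 2-fold. Col5a3, the chain of a rarer type V trimer, was lower, with 302 reads and 160 (log2 ratio -1.29, interval -1.58 to -1.01). Col3a1 and Col5a2 are neighbours on chromosome 1, at chr1:45368383-45406551 (plus strand) and chr1:45431166-45560127 (minus strand), and their log2 ratios differed by -3.47 (interval -3.67 to -3.27). In RPKM (reads per kilobase of transcript, scaled to the library's summed transcript counts) Col3a1 was at 27.0 in Ctr and 1.72 in the knockdown library. Col5a2 was at 5.73 and 4.04, so that the order of these neighbours turned. Of the type XI chains of cartilage fibrils, Col11a1 was higher, with 13 reads and 53 (log2 ratio 1.65, interval 0.75 to 2.65), and Col11a2 was lower, with 38 and 20 (log2 ratio -1.30, interval -2.16 to -0.49). Both rest on few reads, and with reads outside the last exon only, neither was called and Col11a1 stood at -0.62 (interval -1.92 to 0.65). Col27a1 had 428 and 472 reads (log2 ratio -0.24, interval -0.43 to -0.045). Col24a1 had 0 reads in both libraries, which allows up to 0.0148 RPKM in Ctr and 0.0112 in the knockdown library.

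**Figure D2:**
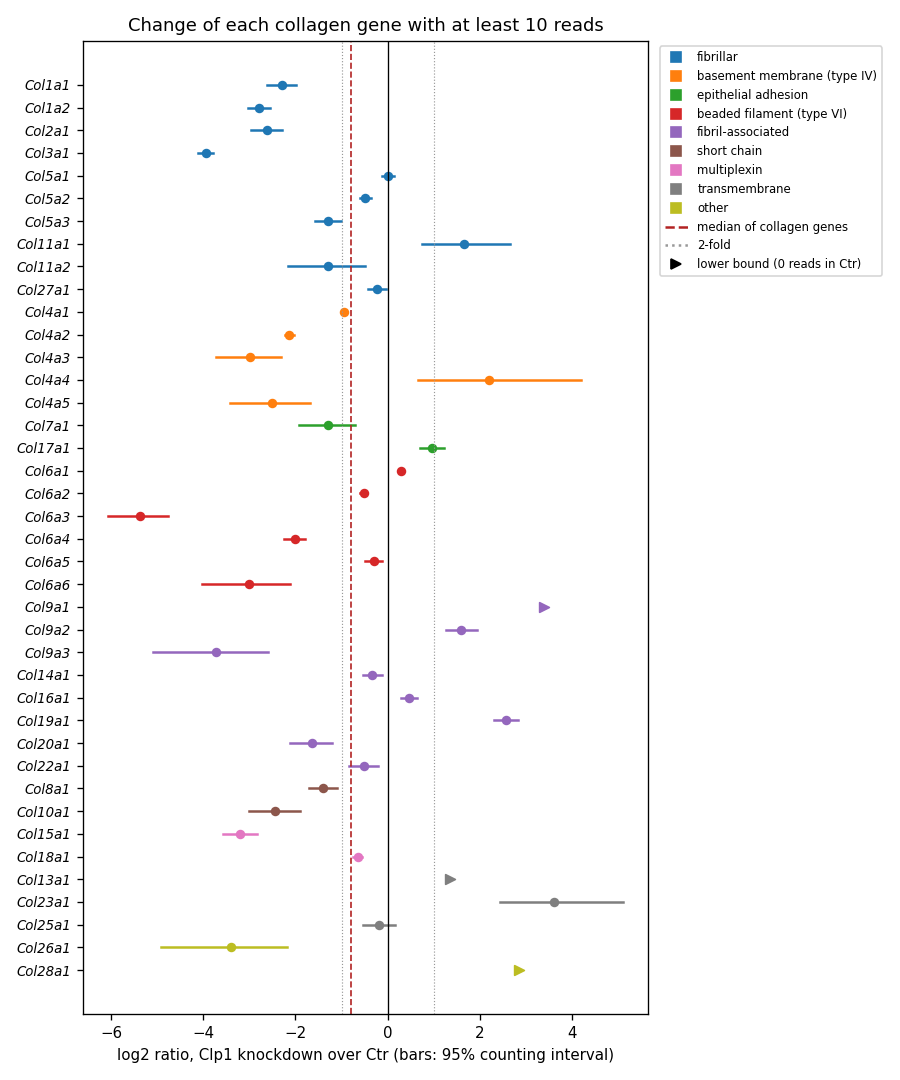
Log2 ratio (knockdown over Ctr) of the 40 collagen genes with at least 10 reads, coloured by class, with bars for the 95% counting interval, triangles for lower bounds of genes with 0 reads in Ctr, dotted lines at 2-fold and a dashed line at the collagen median of -0.80. The genes of types I to III lie between -2.30 and -3.95, Col5a1 lies at 0.0065, and Col17a1 at 0.96 lies on the other side of 0 from Col7a1 at -1.30.

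Among the type IV chains, Col4a2, Col4a3 and Col4a5 were lower and Col4a4 was higher. Of the 5 type IV genes with at least 10 reads, 3 were lower, 1 was higher and 1 was neither, with a median log2 ratio of -2.13. These are 60% lower and 20% higher, where 19.7% and 22% of all genes were. Col4a1 and Col4a2 encode the trimer of all basement membranes and lie head to head on chromosome 8, at chr8:11198423-11312826 (minus strand) and chr8:11312805-11449287 (plus strand). Col4a1, the collagen gene of the highest level in Ctr, had 7574 reads in Ctr and 5113 after knockdown (log2 ratio -0.95, interval -0.997 to -0.894), just short of 2-fold. Col4a2 had 4198 and 1245 (log2 ratio -2.13, interval -2.22 to -2.04). Col4a2 was therefore lower by more than its partner, with a difference of 1.19 (interval 1.08 to 1.29), and the ratio of their RPKM levels was 1.75 in Ctr and 3.99 after knockdown. The difference was present inside and outside the last exon: Col4a1 was at -1.01 in its last exon and -0.90 outside it, and Col4a2 at -1.90 and -2.39.

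Col4a3, Col4a4 and Col4a5 encode the trimer of the glomerular basement membrane, and Col4a3 carries the antigen of Goodpasture disease. Col4a3 had 128 reads in Ctr and 21 after knockdown (log2 ratio -2.99, interval -3.73 to -2.31). Col4a4 had 4 and 24 (log2 ratio 2.21, interval 0.67 to 4.19). Col4a5, on the X chromosome, had 66 and 15 (log2 ratio -2.52, interval -3.43 to -1.69). Chains of 1 trimer thus stood on opposite sides of 0, with a difference of -5.19 between Col4a3 and Col4a4 (interval -7.27 to -3.42). These were low levels, at most 0.522 RPKM in either library, and reads outside the last exon alone gave Col4a3 a log2 ratio of -0.85 (interval -2.00 to 0.26) and Col4a4 one of 0.62 (interval -1.28 to 2.80). Col4a6 had 0 reads in both libraries, which allows up to 0.0159 RPKM in Ctr and 0.0120 in the knockdown library.

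Col4a3 and Col4a4 are also transcribed away from each other. Their annotated starts (GENCODE vM1) leave the 71 bases at chr1:82583425-82583495, printed on the plus strand, toward Col4a3, because this stretch lies upstream of both genes.
Col4a4-Col4a3: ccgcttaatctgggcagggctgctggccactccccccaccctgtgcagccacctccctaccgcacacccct

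The 2 epithelial adhesion collagens stood on opposite sides of 0, and neither the median of the pair (-0.16) nor its sum describes both. Col17a1, of hemidesmosomes, had 175 reads in Ctr and 442 after knockdown (log2 ratio 0.96, interval 0.70 to 1.22), a 1.94-fold difference short of the 2-fold rule. Col7a1, of the anchoring fibrils, was lower, with 70 reads and 37 (log2 ratio -1.30, interval -1.91 to -0.70). The difference between them was -2.26 (interval -2.93 to -1.60). In RPKM, Col17a1 was at 1.13 in Ctr and 2.17 in the knockdown library, rank 24 and rank 11 among the collagen genes, while Col7a1 was at 0.267 and 0.107. The values of both genes depended on the part of the transcript. In the last exon Col17a1 had 44 and 228 reads (log2 ratio 1.99, interval 1.52 to 2.50), and outside it 131 and 214 (log2 ratio 0.33, interval 0.0091 to 0.65). Col7a1 had 0 and 16 reads in its last exon, and outside it 70 and 21 (log2 ratio -2.12, interval -2.89 to -1.39).

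The contrast of the classes named at the start was thus not a contrast of the fibrillar collagens against all others. The fibrillar median lay 1.29 below 0 and the type IV median 2.13 below it, and the fibrillar minus the epithelial median was -1.12. That last value was -0.14 with reads outside the last exon only, and -4.68 with those of the last exon only, where Col7a1 has no read in Ctr and its value rests on the 0.5 added to scaled reads. The fibrillar, type IV and epithelial classes each held genes on both sides of 0. Above it were Col5a1 (0.0065) and Col11a1 of the fibrillar genes, Col4a4 of type IV and Col17a1. Fibrillar genes took 26.4% of all collagen reads in Ctr (interval 25.9% to 26.9%) and 15.1% in the knockdown library (14.7% to 15.6%). Type IV genes took 36.3% (35.8% to 36.8%) and 27.7% (27.1% to 28.3%), and the epithelial pair 0.743% (0.653% to 0.841%) and 2.07% (1.89% to 2.26%). Type VI genes went from 23.0% (22.6% to 23.5%) to 33.7% (33.1% to 34.3%), and became the class of most reads in the knockdown library.

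**Figure D3:**
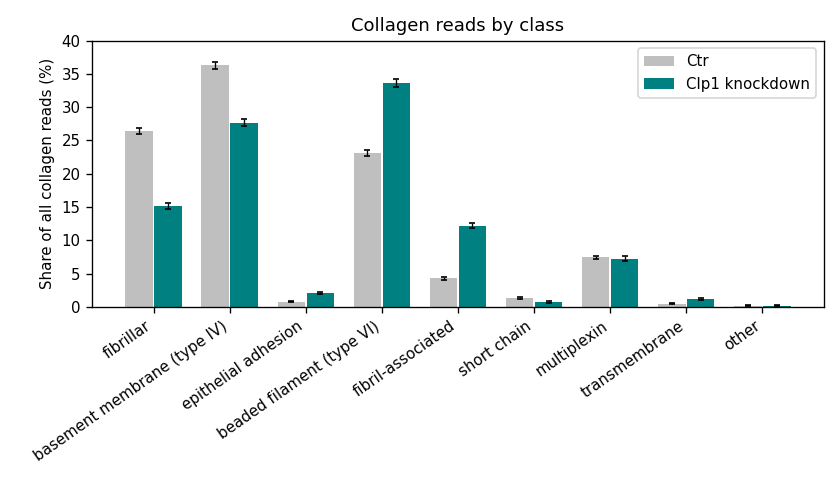
Share of all collagen reads (in percent, axis from 0) held by each collagen class in the Ctr library (grey, 32986 reads) and the Clp1 knockdown library (teal, 23188 reads), with 95% binomial counting intervals. Fibrillar and type IV collagens hold 26.4% and 36.3% in Ctr and 15.1% and 27.7% in the knockdown library, and type VI collagens 23.0% and 33.7%.

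Type VI collagen forms beaded microfilaments around cells from the products of Col6a1, Col6a2 and one further chain, most often that of Col6a3. Col6a1 and Col6a2 stayed within 2-fold and Col6a3 was far lower. Col6a1 had 2781 reads in Ctr and 4402 after knockdown (log2 ratio 0.28, interval 0.22 to 0.35), and was the collagen gene of the highest level there, at 29.5 RPKM. Col6a2 had 2923 and 2650 (log2 ratio -0.52, interval -0.60 to -0.44). Col6a3 had 703 and 22, a 41.5-fold lower level (log2 ratio -5.38, interval -6.06 to -4.77), the lowest ratio of any collagen gene. Its second transcript in the table gave 615 and 21 reads, most of them shared. The difference between Col6a1 and Col6a3 was 5.66 (interval 5.05 to 6.35). Of the chains that can take the place of the Col6a3 product, Col6a4 was lower, with 625 reads and 201 (log2 ratio -2.02, interval -2.25 to -1.78), and Col6a6 too, with 74 and 12 (log2 ratio -3.00, interval -4.02 to -2.11). Col6a5 had 497 and 524 reads (log2 ratio -0.30, interval -0.48 to -0.12). In last-exon reads alone Col6a4 was at -0.95 (interval -1.56 to -0.36) and no longer called, and Col6a5 turned to 1.25 (interval 0.51 to 2.06) and was called higher.

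Fibril-associated collagens sit on the surface of fibrils, and 3 of their 8 genes were higher and 2 lower (37.5% and 25%, where 22% and 19.7% of all genes were). Col19a1, a collagen of muscle and of basement membrane zones, had 136 reads in Ctr and 1051 after knockdown, 5.94-fold higher (log2 ratio 2.57, interval 2.31 to 2.84). Its log2 ratio was 2.58 in the last exon (88 and 685 reads) and 2.70 outside it (42 and 355 reads). Type IX collagen, which coats cartilage fibrils, is a trimer of the products of Col9a1, Col9a2 and Col9a3, and these 3 genes did not move together. Col9a1 had 0 reads in Ctr and 41 after knockdown, a level 10.5-fold higher when Ctr is set to a floor of 3 reads (interval from 8.17-fold). Col9a2 had 97 and 383 (log2 ratio 1.60, interval 1.28 to 1.94). Col9a3, which shares exon bases with Tcfl5 on the other strand, had 71 and 7 (log2 ratio -3.72, interval -5.09 to -2.60). The difference between Col9a2 and Col9a3 was 5.32 (interval 4.13 to 6.72). Col20a1 was lower, with 140 reads and 58 (log2 ratio -1.65, interval -2.12 to -1.20). Col14a1, a fibril-associated collagen of skin and tendon, had 369 and 382 reads, Col16a1 417 and 744, and Col22a1, of tissue junctions, 177 and 161, none of which passed 2-fold. These values depended on the part read. Col14a1 had a log2 ratio of 2.41 in the last exon and -1.14 outside it, and Col16a1 was at 1.25 in the last exon (interval 0.77 to 1.75). Col22a1 had 0 and 18 reads in its last exon, so that all 3 were called higher there.

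Of the short-chain collagens, Col10a1, the collagen of hypertrophic cartilage, was lower, with 150 reads and 36 (log2 ratio -2.44, interval -3.00 to -1.90). It lies within Nt5dc1 on the other strand, so that its reads cannot be told apart from those of that gene if strand was not used in counting. Col8a1, a collagen of vessel walls and the cornea, was lower as well, with 276 reads and 136 (log2 ratio -1.40, interval -1.71 to -1.10), and Col8a2 had 2 reads and 1. The multiplexins belong to basement membrane zones, and the C-terminal fragment of type XVIII is endostatin. Col15a1, prominent around capillaries and muscle, had 507 reads in Ctr and 72 after knockdown (log2 ratio -3.19, interval -3.57 to -2.84). Col18a1 had 1936 and 1605 (log2 ratio -0.65, interval -0.75 to -0.55), a difference of -2.55 between the pair (interval -2.93 to -2.17). Transmembrane collagens span the cell surface, as type XVII does. Col13a1 and Col23a1 were low, at most 0.452 RPKM in either library, and Col25a1 was at 1.79 in Ctr and 1.55 after knockdown. Col23a1 was higher, with 6 reads and 96 (log2 ratio 3.62, interval 2.45 to 5.10). Col13a1 had 0 and 10, 2.56-fold higher against a floor of 3 reads, with an interval from 1.72-fold, below 2-fold. Col25a1 had 134 and 153 (log2 ratio -0.19, interval -0.53 to 0.16), with 0 last-exon reads in both libraries. Its longest transcript gave -0.41 (interval -0.77 to -0.053), and reads outside the last exon -0.77 (interval -1.23 to -0.31). With the trend over GC content given below subtracted, it was at 0.23 (interval -0.12 to 0.57). Among the remaining genes, Col26a1 was lower, with 49 reads and 6 (log2 ratio -3.41). Col28a1 had 0 and 28, 7.18-fold higher against a floor of 3 reads (interval from 5.46-fold).

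By level, 4 of the 5 leading collagen genes of Ctr were also among the 5 leading ones of the knockdown library. The order in Ctr was Col4a1 at 40.2 RPKM, Col6a2 at 27.5, Col3a1 at 27.0, Col6a1 at 24.6 and Col4a2 at 23.0. In the knockdown library it was Col6a1 at 29.5, Col4a1 at 20.6, Col6a2 at 18.9, Col18a1 at 7.60 and Col4a2 at 5.16, with Col3a1 at rank 12. Col6a3 has no deposited length and no RPKM value.

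The reads of collagen genes also lay differently along the transcript in the libraries. As a measure, the read density of the coding exons before the last was divided by that of the last exon, in the 25 collagen genes with at least 50 reads in each library. The median log2 value was -0.65 in Ctr and -1.36 in the knockdown library, with a median change of -0.53 per gene. In 6229 genes of the same length range (2637 to 10542 bp) the medians were -0.19 and -0.26, with a median change of -0.083. Single genes went further, Col14a1 from 1.05 to -2.44 and Col17a1 from -0.65 to -2.50. Collagen genes are also rich in G and C, with a median of 56.4% over 39 genes against 50.6% over all genes. The median log2 ratio of all genes fell with GC content, from 0.56 in genes under 42% to -0.28 between 54% and 58% and -0.45 from 58% up. With the median trend over GC subtracted, 16 collagen genes were lower and 9 higher, the collagen median was -0.55, the fibrillar median -0.77 and the type IV median -1.66. Col5a3, Col7a1 and Col11a2 were then no longer called and Col17a1 was called higher, with 1.33.

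**Figure D4:**
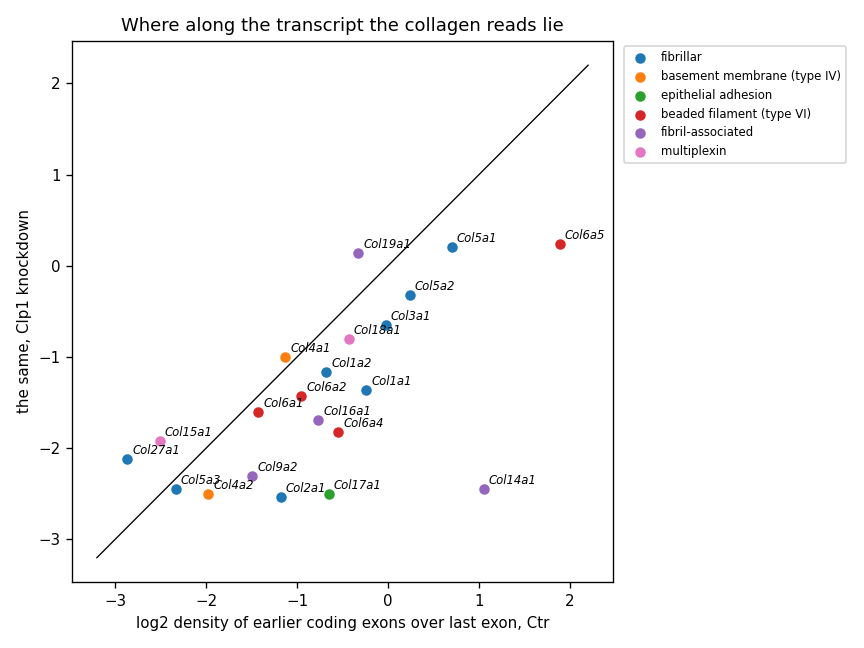
Log2 read density of the earlier coding exons over the last exon in Ctr (horizontal axis) and in the Clp1 knockdown library (vertical axis) for the 21 collagen genes with at least 10 reads in each part in each library, coloured by class, with the line of equal values. Of these genes 17 lie below the line, Col14a1 and Col17a1 far from it, so that a larger part of their reads came from the last exon in the knockdown library.

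Clp1 is a core protein of the complex that cleaves pre-mRNA at poly(A) sites, and the study reads its effect in the d3'UTR ratio, the density of reads past the first annotated poly(A) site divided by their density before it in the last exon. A distal part was deposited for 18 collagen genes, of which 11 had at least 10 last-exon reads in each library. The ratio was called at least 2-fold higher, with an exact conditional interval that excluded 0, in 4 of them and lower in 0, where 13.9% and 12.6% of 5622 genes were. The median change was 0.38 on the log2 scale over the 11 collagen genes and 0.0040 over all genes. In Col5a2 the ratio was 0.101 in Ctr and 0.213 in the knockdown library (change 1.08, interval 0.57 to 1.60). In Col19a1 it was 0.0767 and 0.232 (change 1.60, interval 0.69 to 2.74). Col3a1 had 855 upstream and 0 distal reads in Ctr and 92 and 8 in the knockdown library, and Col6a4 had 58 and 3, then 31 and 10, so that these calls rest on few distal reads. The most deeply read genes gave smaller changes in both directions. Col4a1 went from 1.14 to 0.831 (change -0.46, interval -0.65 to -0.26), Col18a1 from 0.762 to 0.423 (change -0.85, interval -1.22 to -0.49) and Col6a1 from 1.18 to 1.46 (change 0.30, interval 0.12 to 0.49).

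Chains are modified, exported, trimmed and cross-linked by shared enzymes, and genes of these steps were called in both directions, as were genes at large (19.7% of all genes lower, 22% higher). Of 20 genes of chain modification and export, 6 were lower and 2 higher (30% and 10%, median log2 ratio -0.28). Plod1, a lysyl hydroxylase, had 1112 reads in Ctr and 195 after knockdown (log2 ratio -2.89). Colgalt2, a collagen galactosyltransferase, was at -3.04 and P3h1, a prolyl 3-hydroxylase, at -2.00. P4ha3, a chain of prolyl 4-hydroxylase, had 0 reads and 222, 56.9-fold higher against a floor of 3 reads (interval from 5.52 on the log2 scale). Mia2, of the export sites of the endoplasmic reticulum, was at 1.80. Of 14 genes of propeptide removal and cross-linking 4 were lower and 3 higher (28.6% and 21.4%, median 0.33), near the shares of all genes. The procollagen proteinase genes Tll1 and Adamts14 were at -3.29 and -2.26, and Pcolce and Pcolce2, enhancers of C-propeptide removal, at -2.37 and -1.18. The cross-linking enzymes Lox and Loxl4 were higher, Lox with 213 and 878 reads (log2 ratio 1.66) and Loxl4 with 24 and 414 (log2 ratio 3.73), as was the N-propeptidase gene Adamts3 (2.00).

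Collagens lie in the matrix beside proteoglycans, laminins and other glycoproteins. Of 18 interstitial matrix genes 9 were lower and 2 higher (50% and 11.1%, median -1.01), beside 19.7% and 22% of all genes. Fmod, a proteoglycan of collagen fibrils, had 403 reads in Ctr and 0 after knockdown, and Ogn, another small proteoglycan, had 17 and 0. With the knockdown library set to a floor of 3 reads, they were 175-fold and 7.37-fold lower. The limits of their intervals nearest 0 were -7.14 and -2.42 on the log2 scale. The small proteoglycan Bgn was at -2.45. Mfap5, of elastic microfibrils, was higher (2.25), as was Thbs2 (1.16). Dcn and Lum of this list are also among the fibroblast markers above. Of 19 genes of other basement membrane proteins 8 were lower and 2 higher (42.1% and 10.5%, median -0.51). Hspg2, the core protein of perlecan, had 745 and 48 reads (log2 ratio -4.33), and Nid1, which links laminin to type IV collagen, and Frem2, of the Fraser complex, were at -2.95 and -2.86. The laminin chains Lama3 and Lamc3 were higher, Lama3 with 201 and 2148 reads (log2 ratio 3.04) and Lamc3 with 3 and 114 (log2 ratio 4.87). Of the 8 hemidesmosome genes that act with type XVII collagen, 0 were lower and 1, Lama3, was higher (12.5%, median 0.71), beside Col17a1 at 0.96.

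Of 9 genes of collagen receptors 4 were lower and 1 higher (44.4% and 11.1%, median -0.67), beside 19.7% and 22% of all genes. The lower ones were Adgrg1, a receptor of type III collagen (log2 ratio -1.97), the integrin chain gene Itga1 (-1.74), the inhibitory receptor gene Lair1 (-1.48) and the uptake receptor gene Mrc2 (-1.47). The integrin chain gene Itga11 was higher, with 17 and 128 reads (2.53). Of 11 genes of collagenases and their inhibitors 5 were lower and 1 higher (45.5% and 9.09%), with a median of -0.011. The inhibitor genes Timp4 and Timp2 were at -5.17 and -1.07, the metalloproteinase genes Mmp15, Mmp8 and Mmp2 at -1.41, -1.05 and -1.01, and Mmp16 was higher, with 3 and 33 reads (3.08).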

How the data were processed

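Total RNA of sorted GFP-positive and GFP-negative mTEChi of 1 mouse was made into libraries from poly(A) RNA by low-input cDNA synthesis and transposase fragmentation, and was read single-end. Per the submitters' processing notes, Bowtie 1.0.0, bedtools and DESeq were used with the mm9 genome. The authors deposited raw counts of reads per RefSeq transcript (30794 transcripts) and per part of 27567 transcripts, with the length of each part. Whether strand was used in counting, and whether duplicate reads were removed from these libraries, is not stated in the labels or the paper. A table of the authors' comparison (scaled counts, fold changes and p-values) was not used.

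Symbols were matched by RefSeq identifier for 30216 transcripts, and 874 entries with a repeated identifier were taken as copies. Isoforms share reads, so the transcript of most reads stood for each gene (6 collagen genes had several). Col12a1 was not matched and was not analysed here. Size factors were the median ratios to the geometric mean of both libraries (the DESeq scaling). Genes were called at 2-fold or more with at least 10 reads over both libraries and an exact 95% interval that excluded 0. A fold against 0 reads is set against a floor of 3 reads, and the limit of its interval lies nearer 0. Medians used 0.5 added to scaled reads. Intervals and floors cover counting error only, since no molecular identifiers mark copies made by PCR. RPKM used the summed part lengths. Exons, GC content and sequences came from NCBIM37 with GENCODE vM1, in which Col1a1, Col4a1, Col4a2, Col5a1, Col9a3, Col10a1, Col15a1 and Col22a1 share exon bases with a gene on the other strand.

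The members and lists were chosen with earlier results of these data known. Named were all fibrillar, type IV and epithelial collagens, the other collagens with at least 100 reads or with 0 reads in 1 library and 10 or more in the other, and of each partner list up to 3 genes in each direction, those with intervals farthest from 0. Outside this rule, Col6a6, Col8a2, Col9a3 and Col26a1 were named to account for every collagen gene, and Pcolce2, Mrc2, Mmp2, Mmp8 and the markers after their values were seen. Alternatives were total-count scaling, edgeR 4.0.16 TMM factors, read minimums of 1 and 50, the longest transcript, parts of the transcript, a GC trend, a pseudocount of 5, a 4-fold threshold and a wider epithelial class (Python 3.11.15, scipy 1.17.1, R 4.3.3).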

Additional observations from a re-analysis of the deposited data

How the results depend on the processing

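Total-count scaling, edgeR TMM factors, the longest transcript and a minimum of 1 read left every call of the 37 collagen genes compared as it was, with Col5a1, near 0, changing sign under total-count scaling. The 19 lower collagen genes were 16 in last-exon reads, 15 outside the last exon, 16 with the GC trend subtracted and 14 at 4-fold. The 8 higher were 12 in last-exon reads, 4 outside the last exon, 9 with the GC trend subtracted, 4 with at least 50 reads and 5 at 4-fold. The collagen median of -0.80 was -0.95 with at least 1 read, -1.28 with at least 50 and -0.51 in the last exon. The type IV median of -2.13 was -2.30 with at least 50 reads, -0.90 outside the last exon and -1.66 with the GC trend subtracted. The epithelial median of -0.16 was 3.42 in the last exon, -0.88 outside it, 0.28 with the GC trend subtracted and 0.96 with the transmembrane collagens added. The fibrillar minus epithelial median of -1.12 was -4.68, -0.14 and, with those collagens, -2.24. Col11a1 turned to -0.62 outside the last exon. Col7a1 in the last exon alone was higher, at 2.04 on the log2 scale against a floor of 3 reads (interval from 1.57). Read minimums, the threshold and the class change which genes enter, and for the other settings the cause was not tested. No paired analysis was possible because each group has 1 library, and no value can be set against spread between mice. Reads under about 100 over both libraries gave intervals wider than 1 on the log2 scale, as did Col7a1 (107 reads), Col4a3 (149) and Col10a1 (186). The size of the change is therefore poorly known for these genes and for such genes as Col4a4, Col11a1, Col13a1 and Col23a1.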
